A study of Mus musculus with 20 samples.

Results

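By the brightest probe set of each, 10 genes had liver signals that were almost wholly separated by MCAD genotype, whichever injection was given. Rpgrip1, Tff3, Fam47e, Tmem267 and Efhd2 were bright in MCAD-/- mice, and Cap1, Gm7969, Rad51b, Xaf1 and Abhd1 were bright in wild type mice. The other probe set of Xaf1 had the opposite order, and that of Efhd2 had a much smaller difference. These 10 of the 18193 genes with a symbol of their own on the array were picked because their signals differed between genotypes with both injections, so every genotype difference given for them is a description and carries no test. All 19 of their probe sets among 45037 were taken, of which 14 exceeded 16 intensity units on at least 5 of the 20 arrays and could be tested for LPS among 15748 such probe sets. The other 5 stayed under 16 units in every mouse.

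Liver RNA came from 20 male mice, 1 Affymetrix array each, in 4 groups of 5 that the series' design text calls biological replicates. All had a BL6/SV129 mixed genetic background, were aged 50 to 60 days and went without food for 12 h after an injection. Each genotype, wild type or MCAD-/-, received either vehicle or LPS (lipopolysaccharide, 100 µg per 20 g of body weight). MCAD, medium-chain acyl-CoA dehydrogenase, is a mitochondrial enzyme of fatty acid beta-oxidation, and LPS is a component of bacterial outer membranes that provokes inflammation. The labels do not say how the knockout was made, whether the mice were littermates, or which share of either parental strain a mouse carried. Strain ancestry and the loss of MCAD therefore cannot be told apart here, and no statement below assigns a difference to the enzyme.

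The arrays were alike in coverage, with 30.18% to 32.28% of probe sets over 16 units. The targeted gene Acadm read 1450 to 4022 units in wild type mice and 9.03 to 218 units in MCAD-/- mice, and none of the 10 genes lies on its chromosome. Wild type LPS replicate 4 and wild type vehicle replicate 3 stood apart in the log2 ratio of the 3' to the 5' actin control, at 3.69 and 3.18 against a median of 1.79 over the arrays. The mean log2 level of 8 skeletal muscle markers was 4.82 in wild type LPS replicate 2 and at most 2.46 in the mice of the other 3 groups. All 10 hepatocyte markers were over 16 units in every mouse, while all 7 bile duct and all 8 goblet cell markers were under it in every mouse. Markers of endothelial cells (8 of 9 tested), of Kupffer cells and macrophages (6 of 9) and of stellate cells and fibroblasts (4 of 8) were higher in MCAD-/- than in wild type mice with vehicle by limma at an adjusted p under 0.05, beside 9.01% of all tested genes. With LPS none of those 3 lists held a higher marker, while 2 endothelial markers (Stab2 and Tek) and 2 stellate cell markers (Lrat and Pdgfrb) were lower, beside 11.1% of all tested genes. The mean log2 level of the endothelial list ran from 4.74 to 5.68 in wild type and from 6.16 to 6.78 in MCAD-/- mice with vehicle, and from 5.25 to 5.95 and from 5.01 to 5.84 with LPS. The Kupffer cell list ran from 5.80 to 6.53 and from 6.59 to 7.13 with vehicle, and from 4.78 to 5.94 and from 5.07 to 6.03 with LPS. For stellate cells the ranges were 5.17 to 5.90 and 6.05 to 6.35 with vehicle, and 5.23 to 5.92 and 5.44 to 5.82 with LPS. Their part in the differences below was not tested, and in whole liver RNA fewer cells of a type and less RNA per cell cannot be told apart.

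The 10 genes were picked by their signals and not by pathway, and whether they share one was not tested. Xaf1 encodes an interferon-inducible partner of the caspase inhibitor Xiap. Cap1 and Efhd2 encode proteins that bind actin, Cap1 in the recycling of actin monomers and Efhd2 as a calcium sensor best known in immune cells. Rad51b takes part in the repair of DNA breaks, Rpgrip1 anchors the retinitis pigmentosa GTPase regulator at the connecting cilium of photoreceptors, and Tff3 is a trefoil peptide that goblet cells secrete with mucus. Tmem267 is named as a transmembrane protein and Abhd1 for an alpha/beta hydrolase domain. RefSeq's table lists 8 of the 10 as protein coding, Gm7969 as a long non-coding RNA and Abhd1 as a transcribed pseudogene. A probe set reads the stretch of transcript that its probes match, and different probe sets of a gene can read different stretches, which is why all of them are given here.

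Promoter sequences were in the table used here for 7 of the 10 genes (RefSeq, build GRCm38.p6). Those of the 3 genes that had a promoter there and a rise after LPS above 16 units are shown, since they are the ones whose signal moved upward within a genotype. Each line runs from 250 bases before the start site to 30 bases after it, and capitals mark matches on either strand to GAAANNGAAA (the core repeat of interferon-stimulated response elements), GAAANGAAA (the same repeat with 1 base between) or TTCNNNGAA (the STAT site).
Xaf1, chr11:72301379-72301658, plus strand: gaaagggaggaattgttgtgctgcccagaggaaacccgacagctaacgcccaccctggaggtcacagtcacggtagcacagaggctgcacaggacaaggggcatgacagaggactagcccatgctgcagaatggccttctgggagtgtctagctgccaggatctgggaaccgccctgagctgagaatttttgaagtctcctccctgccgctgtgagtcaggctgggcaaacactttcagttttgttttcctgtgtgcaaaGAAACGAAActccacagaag
Cap1, chr4:122886047-122886326, minus strand: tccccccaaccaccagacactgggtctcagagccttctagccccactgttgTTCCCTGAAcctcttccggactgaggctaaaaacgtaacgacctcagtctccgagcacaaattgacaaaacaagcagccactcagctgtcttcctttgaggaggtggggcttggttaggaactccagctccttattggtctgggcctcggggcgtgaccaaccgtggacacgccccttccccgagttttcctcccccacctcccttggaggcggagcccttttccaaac
Rpgrip1, chr14:52110653-52110932, plus strand: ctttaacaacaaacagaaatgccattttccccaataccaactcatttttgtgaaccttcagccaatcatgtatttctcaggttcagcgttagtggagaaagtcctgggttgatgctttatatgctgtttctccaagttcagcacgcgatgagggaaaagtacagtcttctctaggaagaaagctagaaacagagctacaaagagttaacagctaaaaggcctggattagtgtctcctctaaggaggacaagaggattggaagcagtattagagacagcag
The Xaf1 window held 1 match, GAAACGAAA, which begins at position 11 counted from the start site. Cap1 held 1 match, TTCCCTGAA, at -199 from the start site, and Rpgrip1 held none. Among 32817 promoters of 300 bases, 3.43% held GAAANNGAAA, 3.17% held GAAANGAAA and 8.29% held TTCNNNGAA. The motifs were chosen after the LPS values were known, and a match describes letters only.

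Xaf1 was the gene whose probe sets disagreed most. Its brighter probe set, 1443621_at, read 117, 74.7, 81.4, 66 and 90 units in vehicle-injected wild type mice and 3.85, 6.48, 6.2, 5.31 and 6.4 units in MCAD-/- mice with vehicle. With LPS, the readings were 674, 649, 853, 809 and 580 units in wild type and 6.37, 6.59, 8.51, 6.41 and 8.73 units in MCAD-/- mice. By this probe set every wild type mouse was above every MCAD-/- mouse, and the wild type signal stood far higher after LPS while the MCAD-/- signal never reached 16 units. The other probe set, 1443698_at, read 15, 10.1, 11.5, 13.4 and 8.01 units in wild type and 22.8, 32.7, 20.1, 25.8 and 22.3 units in MCAD-/- mice with vehicle. The LPS groups read 10.3, 14.3, 21.9, 11.5 and 20.8 units in wild type and 324, 351, 380, 380 and 478 units in MCAD-/- mice. Here the order was the opposite: every MCAD-/- mouse was above every wild type mouse given the same injection.

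The genotype difference of Xaf1 was therefore -3.92 ± 0.17 with vehicle and -6.61 ± 0.17 with LPS by the brighter probe set (log2, MCAD-/- minus wild type, SE), at least 5.26-fold and at least 44.1-fold lower. By 1443698_at it was 1.11 ± 0.21 and 4.66 ± 0.21, at least 1.52-fold higher with vehicle and 25.2-fold higher with LPS, the latter fold resting on a wild type group with 3 of 5 mice under 16 units. A bound of this kind sets the dimmer group at 16 units, since lower values have no reliable order. LPS raised 1443621_at 8.38-fold in wild type mice (3.07 ± 0.17, limma adjusted p = 2.59e-11) and raised 1443698_at 15.6-fold in MCAD-/- mice (3.96 ± 0.21, adjusted p = 1.11e-11). In each genotype the other probe set did not pass the test, at 0.41 ± 0.21 for 1443698_at in wild type (adjusted p = 0.101) and 0.39 ± 0.17 for 1443621_at in MCAD-/- mice (adjusted p = 0.058). Without wild type LPS replicate 1 the former passed (0.55, adjusted p = 0.0312), and the latter, under 16 units throughout, passed without any 1 of 3 vehicle mice at adjusted p values from 0.0414 to 0.0471, with median centring (adjusted p = 0.0384) and with quantile normalization (adjusted p = 0.0463). With all mice in the fit, the rise that passed above 16 units was that of 1443621_at in wild type and of 1443698_at in MCAD-/- mice.

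**Figure D1:**
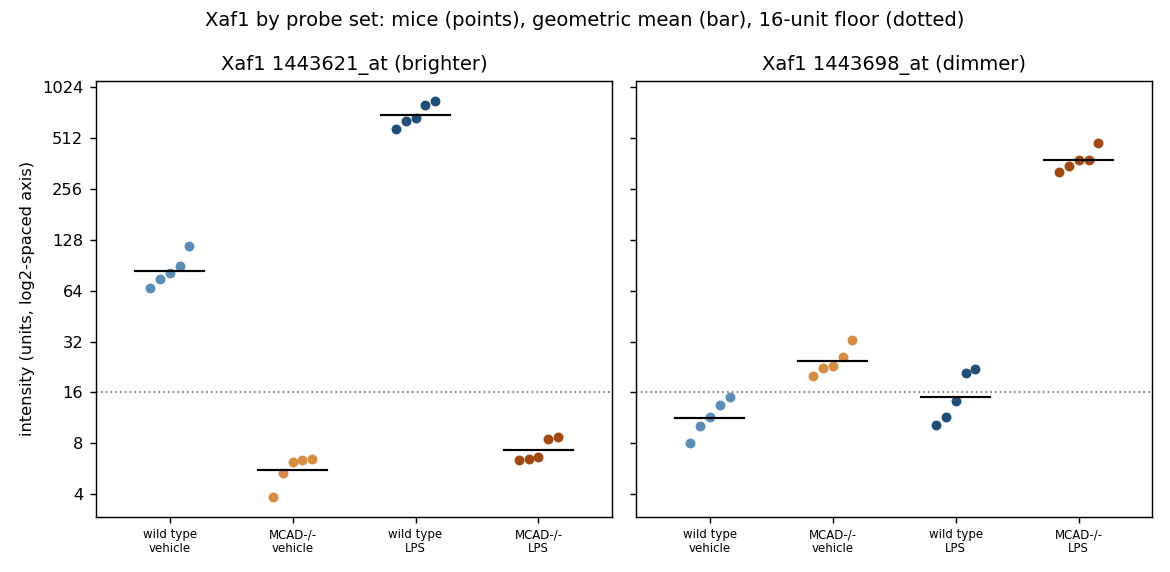
Intensity of the 2 Xaf1 probe sets (log2-spaced axis, units) in each of the 20 mice by group; points are mice, bars are geometric means and the dotted line is 16 units. The left probe set is high only in wild type mice, up to 853 units after LPS, and the right one is high in MCAD-/- mice, up to 478 units after LPS.

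Other genes on the interferon list, chosen from common knowledge, bear on whether the LPS injection had acted in both genotypes. Of its 18 tested genes, 17 rose after LPS in wild type and 17 in MCAD-/- mice, with median differences of 1.88 and 1.86 on the log2 scale beside 0.18 and 0.14 over all tested genes. Of all tested genes 63.2% changed after LPS in wild type (39.5% rose and 23.7% fell) and 64.6% in MCAD-/- mice (37.4% rose and 27.3% fell). Irf7, a transcription factor of the interferon response, rose by 5.08 ± 0.18 in wild type mice (limma adjusted p = 3.65e-14), and Zbp1, a sensor of nucleic acids, rose by 5.35 ± 0.18 in MCAD-/- mice (adjusted p = 1.78e-14). Between genotypes, 2 of the 18 were higher and 2 lower in MCAD-/- mice with vehicle, and 1 was higher and 4 lower with LPS, beside 9.01% and 5.79% of all tested genes with vehicle and 8.23% and 11.1% with LPS. Among 10 tested inhibitors of apoptosis and partners of Xaf1, 6 rose and none fell after LPS in wild type, and 7 rose and 1 fell in MCAD-/- mice. None of these 10 differed between genotypes with vehicle, and with LPS Birc6 was higher (0.39 ± 0.11, adjusted p = 0.0162) and Naip2 lower (-0.99 ± 0.28, adjusted p = 0.018). Diablo, which releases caspases from inhibition, rose in both genotypes, by 0.87 ± 0.10 in wild type (adjusted p = 6.88e-07) and 0.88 ± 0.10 in MCAD-/- mice (adjusted p = 5.52e-07).

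Cap1 was bright in wild type liver by both of its probe sets, which were made from the same source sequence. Probe set 1417461_at read 190, 176, 130, 157 and 176 units in wild type and 4.48, 3.81, 6.61, 4.93 and 7.49 units in MCAD-/- mice with vehicle. Mice given LPS read 243, 273, 226, 219 and 281 units in wild type and 8.31, 7.86, 14, 7.22 and 7.4 units in MCAD-/- mice. No MCAD-/- mouse reached 16 units and no wild type mouse fell below 130 units. The differences were -4.96 ± 0.19 with vehicle and -4.83 ± 0.19 with LPS, at least 10.3-fold and at least 15.5-fold lower. Probe set 1417462_at read 105, 137, 41.2, 98.4 and 134 units in wild type with vehicle and 222, 225, 116, 31.4 and 129 units in wild type with LPS. In MCAD-/- mice the same probe set ran from 3.14 to 5.16 units over all 10 mice, so its groups did not overlap either, at -4.59 ± 0.41 and -4.79 ± 0.41. The lowest wild type values of 1417462_at, 41.2 and 31.4 units, came from the arrays with the highest actin ratios in the series, and whether the ratio played a part was not tested.

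LPS raised Cap1 in wild type mice 1.5-fold by 1417461_at (0.59 ± 0.19, limma adjusted p = 0.0122), with every LPS mouse above every vehicle mouse. By 1417462_at the difference of 0.32 ± 0.41 did not pass (adjusted p = 0.52), and without wild type LPS replicate 4 it was 0.80 and passed (adjusted p = 0.0246). In 27 of the 28 alternatives it did not pass, among them the fit without both arrays of highest actin ratio. In MCAD-/- mice the difference of 0.71 ± 0.19 by 1417461_at passed (adjusted p = 0.00332), although all 10 values were under 16 units and no fold is given.

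Efhd2 was bright in MCAD-/- liver by probe set 1437478_s_at. It read 113, 83.6, 66.1, 69.4 and 87.5 units in wild type and 1007, 1092, 1074, 917 and 892 units in MCAD-/- mice with vehicle. In LPS-injected mice the values were 68.8, 46.7, 95.2, 114 and 67.3 units in wild type and 1187, 1279, 1516, 1113 and 1612 units in MCAD-/- mice. Of the brightest probe sets of the 10 genes, that of Efhd2 alone was above 16 units in all 20 mice, so its folds of 12.1 with vehicle (3.59 ± 0.20) and 17.8 with LPS (4.15 ± 0.20) needed no floor. The other probe set, 1431339_a_at, showed a smaller genotype difference. It read 184, 170, 116, 144 and 185 units in wild type and 218, 204, 242, 208 and 207 units in MCAD-/- mice with vehicle, a 1.37-fold difference (0.45 ± 0.16) with no overlap. With LPS its values of 142, 184, 231, 222 and 229 units in wild type and 234, 278, 311, 218 and 360 units in MCAD-/- mice overlapped, at 1.39-fold (0.47 ± 0.16). Affymetrix gives the suffix _s_at to probe sets that can match transcripts of more than 1 gene, so the large difference of 1437478_s_at is uncertain as a measure of Efhd2. Neither probe set passed the LPS test in either genotype, with differences from -0.14 ± 0.20 to 0.42 ± 0.20 and limma adjusted p values from 0.0658 to 0.561. In MCAD-/- mice both came close (0.42, adjusted p = 0.0699, and 0.36, adjusted p = 0.0658). Leaving out certain mice, median centring or the fit of the compared groups alone moved each past the threshold, with adjusted p down to 0.0121 and 0.0299. Quantile normalization did so for 1437478_s_at (adjusted p = 0.0499). The single mice that did so for 1437478_s_at were wild type LPS replicates 2 and 4, which enter the MCAD-/- comparison only through the shared spread. In wild type mice 1431339_a_at passed without LPS replicate 1 (0.46, adjusted p = 0.0178) and with median centring (0.37, adjusted p = 0.0491).

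Other genes of actin turnover gave a background for Cap1 and Efhd2. Of 17 tested, 13 rose and none fell after LPS in wild type mice, and 13 rose and 2 fell in MCAD-/- mice. Over all tested genes 39.5% rose and 23.7% fell in wild type, and 37.4% and 27.3% in MCAD-/- mice. Between genotypes 3 of the 17 were higher and 2 lower with vehicle, beside 9.01% and 5.79% of all tested genes, and 2 were higher and 3 lower with LPS, beside 8.23% and 11.1%. Dstn, which severs and depolymerises actin filaments, was lower in MCAD-/- mice with both injections, by -1.02 ± 0.09 (limma adjusted p = 1.77e-07) and -0.79 ± 0.09 (adjusted p = 6.13e-06). Pfn1, which binds actin monomers, was lower as well, by -1.02 ± 0.23 (adjusted p = 0.00543) and -1.10 ± 0.23 (adjusted p = 0.00251). Among 7 tested EF-hand proteins and their partners, none was higher in MCAD-/- mice, 2 were lower with vehicle and 1 with LPS, and S100a10 was lower with both, by -1.81 ± 0.25 (adjusted p = 3.31e-05) and -2.41 ± 0.25 (adjusted p = 7.95e-07).

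Gm7969, a non-coding RNA, was bright in wild type liver by both of its probe sets that could be tested. Probe set 1455240_x_at read 154, 200, 152, 184 and 174 units in wild type and 4.41, 3.69, 3.75, 3.81 and 3.23 units in MCAD-/- mice with vehicle. LPS-injected livers read 261, 253, 239, 212 and 253 units in wild type and 2.27, 2.42, 2.39, 2.89 and 2.9 units in MCAD-/- mice. With the MCAD-/- mice set at 16 units, the dimmest of the 10 wild type mice was at least 9.5-fold above all of them, and the differences of -5.51 ± 0.11 and -6.57 ± 0.11 gave at least 10.7-fold and at least 15.2-fold lower levels. Probe set 1435217_at, made from the same source sequence, read 74.3 to 103 units in wild type with vehicle, 101 to 133 with LPS and at most 4.96 units in MCAD-/- mice. The third, 1443564_at, came from another source sequence and stayed under 16 units in all mice (2.9 to 14.1 units), so it gives no reading of the gene. The suffix _x_at marks probes that can match other transcripts, so the level of 1455240_x_at is uncertain.

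LPS raised Gm7969 in wild type mice 1.41-fold by 1455240_x_at (0.50 ± 0.11, limma adjusted p = 0.000607) and 1.24-fold by 1435217_at (0.31 ± 0.13, adjusted p = 0.0497). The second call was lost when any 1 of 15 mice was left out, with adjusted p up to 0.133. In MCAD-/- mice the fitted differences were -0.56 ± 0.11 (adjusted p = 0.000218) and -0.32 ± 0.13 (adjusted p = 0.0427), but all values were under 16 units, so neither a fold nor a direction is read from them. The second of these calls was lost without any 1 of 7 mice, with adjusted p up to 0.135.

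Rad51b was bright in wild type liver by 1 of its 2 probe sets. Probe set 1421430_at read 140, 110, 70.2, 91 and 137 units in wild type and 3.26, 2.44, 2.95, 3.89 and 4.22 units in MCAD-/- mice with vehicle. With LPS the values were 66.8, 64.4, 79, 46.8 and 7.23 units in wild type and 4.53, 4.85, 4.98, 2.56 and 6.2 units in MCAD-/- mice. With vehicle every wild type mouse was above 16 units and every MCAD-/- mouse under it. With LPS this held for 4 of the 5 wild type mice, while replicate 5, at 7.23 units, and the highest MCAD-/- mouse, at 6.2 units, were both under 16 units and cannot be ordered. The differences were -5.01 ± 0.46 with vehicle and -3.20 ± 0.46 with LPS, at least 6.63-fold and at least 2.56-fold lower, and -3.83 with LPS when that mouse was left out. Rad51b fell 2.59-fold after LPS in wild type mice (-1.37 ± 0.46, limma adjusted p = 0.0155). Without replicate 5 the fall was -0.75 (adjusted p = 0.0152), and in a fit of the wild type groups alone with all mice the call was lost (adjusted p = 0.0592). The other probe set, 1430486_at, ran from 2.4 to 4.04 units over the 20 mice and gives no reading of the gene.

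Abhd1 had a single probe set, 1418148_at. It read 221, 338, 209, 258 and 276 units in wild type and 8.58, 9.96, 10.2, 8.29 and 14.2 units in MCAD-/- mice with vehicle. Given LPS, the mice read 187, 223, 119, 171 and 154 units in wild type and 10.7, 10.7, 9.45, 9.46 and 7.74 units in MCAD-/- mice. All 10 wild type mice were above 16 units and all 10 MCAD-/- mice under it, with differences of -4.67 ± 0.18 and -4.13 ± 0.18, at least 16-fold and at least 10.4-fold lower. LPS lowered Abhd1 1.53-fold in wild type mice (-0.62 ± 0.18, limma adjusted p = 0.00511), with overlapping values. In MCAD-/- mice the difference was -0.08 ± 0.18 (adjusted p = 0.718). Other genes of the alpha/beta hydrolase family were mostly well above 16 units, and of 17 tested 2 were higher and 2 lower in MCAD-/- mice with vehicle, beside 9.01% and 5.79% of all tested genes. With LPS 2 were higher and 4 lower, beside 8.23% and 11.1%. After LPS 3 of the 17 rose and 8 fell in wild type, beside 39.5% and 23.7% of all tested genes, and 3 rose and 9 fell in MCAD-/- mice, beside 37.4% and 27.3%. Abhd6, a monoacylglycerol lipase, was lower in MCAD-/- mice with both injections, by -0.96 ± 0.19 (adjusted p = 0.00155) and -1.54 ± 0.19 (adjusted p = 8.86e-06).

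Among the genes bright in MCAD-/- liver, Rpgrip1 had 4 probe sets, of which only 1421144_at was measurable. It read 4.35, 4.19, 6.1, 7.96 and 4.89 units in wild type and 168, 166, 212, 193 and 190 units in MCAD-/- mice with vehicle. The readings after LPS were 8.39, 6.02, 6.43, 13 and 7.13 units in wild type and 269, 273, 299, 254 and 231 units in MCAD-/- mice. All MCAD-/- mice were above all wild type mice, with differences of 5.12 ± 0.19 and 5.07 ± 0.19, at least 11.6-fold and at least 16.5-fold higher. The other 3 probe sets, 1454231_a_at, 1431357_a_at and 1451785_at, ran from 3.07 to 6.09 units over all 20 mice, and their genotype differences lay between -0.19 and 0.20. Rpgrip1 rose 1.43-fold after LPS in MCAD-/- mice (0.51 ± 0.19, limma adjusted p = 0.0253), with no overlap. That call was lost without MCAD-/- LPS replicate 3 and without vehicle replicates 1 or 2, at adjusted p values from 0.0542 to 0.0574. The difference of 0.56 ± 0.19 in wild type mice (adjusted p = 0.0162) lay under 16 units and was lost without wild type LPS replicate 4 (0.38, adjusted p = 0.0524) and in a fit of the wild type groups alone (adjusted p = 0.0655).

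Markers of photoreceptors and of the cilium base were mostly too dim to read beside Rpgrip1. Of 7 photoreceptor markers on the array 1 was tested, the transducin subunit Gnat1, and its genotype differences of 0.72 with vehicle and 0.17 with LPS did not pass. Of 12 cilium base genes 1 was tested, Invs, which was lower in MCAD-/- mice with LPS (-1.30 ± 0.24, limma adjusted p = 0.000749) and had a difference of -0.25 with vehicle that did not pass.

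Tff3 had a single probe set, 1417370_at. It read 5.11, 5.05, 4.27, 6.32 and 5.41 units in wild type and 76, 74.2, 121, 171 and 143 units in MCAD-/- mice with vehicle. In the LPS groups the readings were 5.33, 6.14, 4.41, 6.76 and 5.12 units in wild type and 28.9, 15.5, 14.7, 61.8 and 18.1 units in MCAD-/- mice. The gene was thus readable in MCAD-/- mice alone, and after LPS 2 of those 5 mice fell under 16 units. Its differences were 4.42 ± 0.31 and 2.10 ± 0.31, at least 6.93-fold and at least 1.48-fold higher. With all values under 32 units set to 32, the difference with LPS was 0.19 in place of 2.10. LPS lowered Tff3 4.69-fold in MCAD-/- mice (-2.23 ± 0.31, limma adjusted p = 5.63e-06), and every LPS mouse was below every vehicle mouse. In wild type mice the difference was 0.08 ± 0.31 (adjusted p = 0.838), under 16 units throughout. None of 8 other trefoil and mucosal secretion genes on the array reached the level for a test, and the goblet cell markers, among them Muc2, Spdef and Agr2, were under 16 units in all mice.

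Fam47e had a single probe set, 1455383_at. It read 8.61, 19.1, 35, 15.8 and 17 units in wild type and 288, 455, 271, 286 and 269 units in MCAD-/- mice with vehicle. Values after LPS were 12.9, 24.4, 5.94, 8.96 and 3.95 units in wild type and 168, 240, 59.7, 169 and 53 units in MCAD-/- mice. The genotypes did not overlap with either injection, at 4.15 ± 0.47 (17.7-fold) and 3.66 ± 0.47 (12.7-fold), both folds resting on wild type groups that lay partly under 16 units. LPS lowered Fam47e 2.63-fold in MCAD-/- mice (-1.40 ± 0.47, limma adjusted p = 0.0152), a call lost without LPS replicate 5 (-1.11, adjusted p = 0.0516). In wild type mice the difference of -0.91 ± 0.47 did not pass (adjusted p = 0.103). It passed without LPS replicate 2, the mouse with muscle markers (-1.26, adjusted p = 0.0223) and without vehicle replicate 1 (-1.16, adjusted p = 0.0468).

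Tmem267 had a single probe set, 1426607_at. It read 4.82, 5.03, 9.82, 6.01 and 7.41 units in wild type and 111, 93.2, 86.1, 117 and 102 units in MCAD-/- mice with vehicle. Under LPS it read 5.23, 4.33, 4.39, 5.14 and 7.6 units in wild type and 67.3, 54.2, 73.3, 85 and 66.1 units in MCAD-/- mice. Every MCAD-/- mouse was above 16 units and every wild type mouse under it, with differences of 3.99 ± 0.19 and 3.71 ± 0.19, at least 6.33-fold and at least 4.28-fold higher. LPS lowered Tmem267 1.48-fold in MCAD-/- mice (-0.56 ± 0.19, limma adjusted p = 0.014), with no overlap. In wild type mice the difference of -0.29 ± 0.19 did not pass (adjusted p = 0.193), under 16 units throughout.

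**Figure D2:**
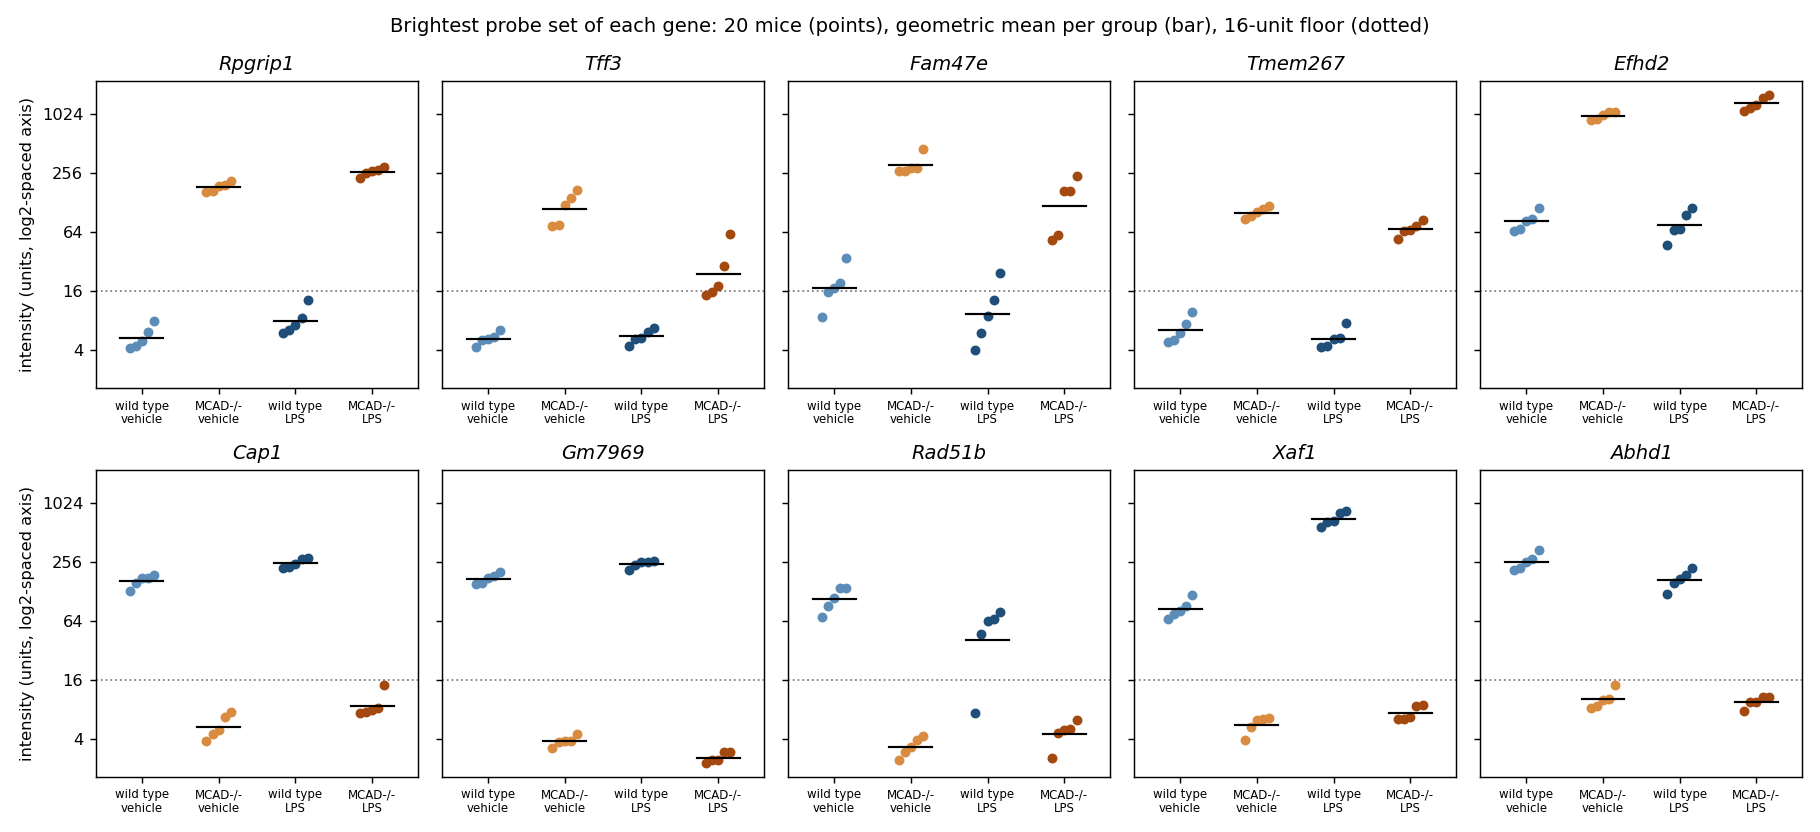
Intensity (log2-spaced axis, units) of the brightest probe set of each of the 10 genes in the 20 mice, by group; points are mice, bars are geometric means of 5 mice and the dotted line is 16 units. The upper 5 genes are higher in both MCAD-/- groups and the lower 5 in both wild type groups. Tff3 lies under 16 units in MCAD-/- LPS replicates 2 and 3 (15.5 and 14.7 units), and the lowest wild type Rad51b value is 7.23 units.

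Over the 10 genes the genotypes were separated with few exceptions. With vehicle, 14 of the 14 tested probe sets had groups that did not overlap, 7 higher and 7 lower in MCAD-/- mice, beside 12.7% of all tested probe sets. With LPS it was 13 of 14, 6 higher and 7 lower, beside 11.7%, the exception being Efhd2 1431339_a_at. When the 10 wild type mice were set against the 10 MCAD-/- mice whatever their injection, 12 of the 14 did not overlap, beside 1.92% of all tested probe sets, and the exceptions were Efhd2 1431339_a_at and Xaf1 1443698_at. Some of these separations lay between values under 16 units. With every value under 16 units set at 16, 14 of 14 were separated with vehicle (beside 11.5% of all tested probe sets), 11 of 14 with LPS (beside 11%) and 10 of 14 over both injections (beside 1.59%), and Tff3 and Rad51b joined the exceptions with LPS and over both. On that footing the dimmest mouse of the brighter genotype was 10.4-fold above all mice of the other for Rpgrip1 1421144_at, 9.5-fold for Gm7969 1455240_x_at, 8.09-fold for Cap1 1417461_at, 7.83-fold for Efhd2 1437478_s_at, 7.44-fold for Abhd1, 4.13-fold for Xaf1 1443621_at, 3.39-fold for Tmem267 and 1.51-fold for Fam47e, each except Efhd2 and Fam47e a lower bound. These counts and gaps use the contrasts by which the genes were chosen and show only how wide the separation was.

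Among the 6 genes with several probe sets, only Cap1 and Gm7969 had the same large difference in every probe set that could be read. In each of these genes those probe sets were made from a single source sequence, so they may not be separate readings of the gene. Xaf1 reversed and Efhd2 shrank: the mean over both probe sets was -1.41 with vehicle and -0.97 with LPS for Xaf1, and 2.02 and 2.31 for Efhd2. For Rpgrip1 and Rad51b the other probe sets were too dim to give a second reading. Whether a difference seen by 1 probe set lies in the amount of transcript or in the stretch that its probes match was not tested, because probe sequences were not used here. On these arrays a difference that shrank in another probe set was common, and a reversal was rare. With vehicle, 54 genes had several tested probe sets and a genotype difference over 2 on the log2 scale in 1 of them. Of these, 23 had all other tested probe sets past 1 in the same direction, 29 had another within 1, and 2 had another past 1 in the opposite direction. With LPS the counts were 30, 25 and 4 of 59 genes. These counts include Xaf1, among the reversals, and Efhd2, among those with another within 1. Tff3, Fam47e, Tmem267 and Abhd1 rest on 1 probe set each.

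**Figure D3:**
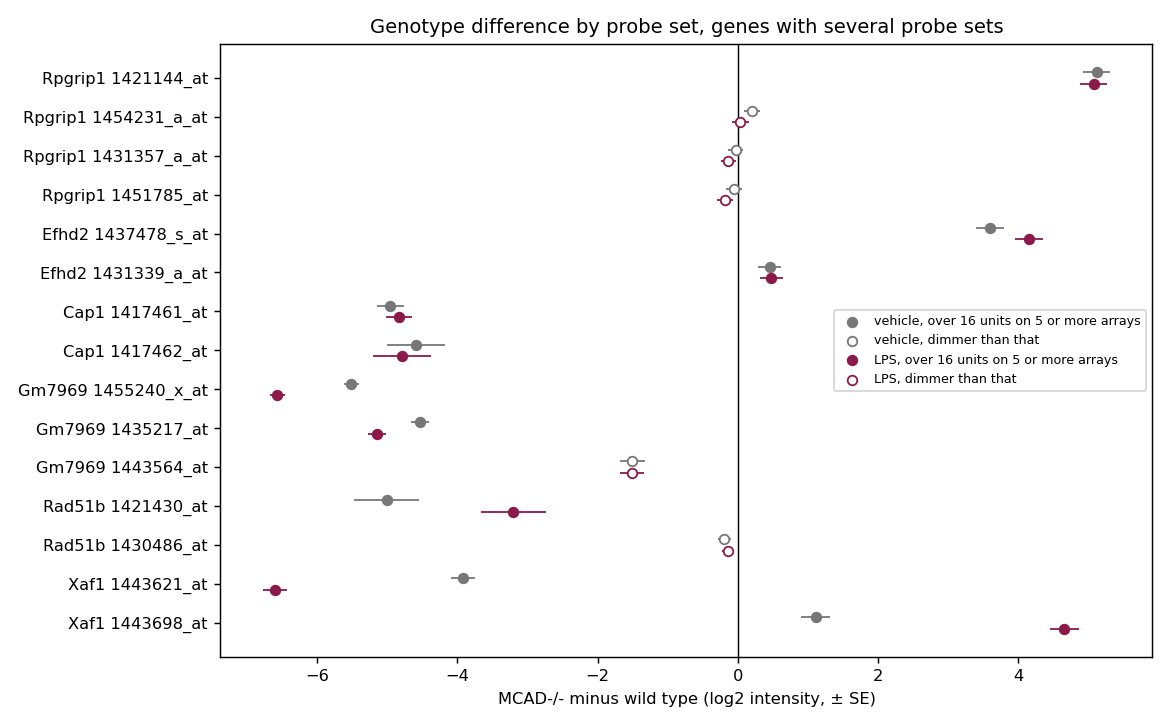
Genotype difference (MCAD-/- minus wild type, log2 intensity, ± SE from the fit) of each probe set of the 6 genes with several probe sets, with vehicle and with LPS; open symbols are probe sets too dim to test. Cap1 and Gm7969 keep one direction in every probe set that could be tested, the 2 Xaf1 probe sets lie on opposite sides of 0, and 1431339_a_at of Efhd2 lies at 0.45 and 0.47.

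The response to LPS was not part of the choice of these genes, although it was measured in the same mice. In wild type mice 7 of the 14 tested probe sets passed, 5 higher and 2 lower after LPS, beside 59.3% of all tested probe sets (34.9% higher and 24.4% lower). In MCAD-/- mice 8 of 14 passed, 3 higher and 5 lower, beside 60.5% (34.5% higher and 26% lower). The median difference over the 14 was 0.31 in wild type and 0.24 in MCAD-/- mice, beside 0.11 and 0.12 over all tested probe sets. Both shares lie near the background, and the counts say nothing particular of these genes. Many of the 14 exceeded 16 units in 1 genotype alone, so these counts include probe sets that could not be read in the other. Among the 14, Rpgrip1, Tff3 and Tmem267 lay wholly under 16 units in wild type mice. In MCAD-/- mice both Cap1 and both tested Gm7969 probe sets, Rad51b, Xaf1 1443621_at and Abhd1 did. Leaving those out, 6 passed in wild type, 4 higher and 2 lower, and 5 in MCAD-/- mice, 2 higher and 3 lower. No share over all probe sets was computed for readable ones alone. Groups did not overlap for 3 of 14 probe sets in wild type (beside 41.9%) and for 7 of 14 in MCAD-/- mice (beside 47.4%), or 3 (beside 39.4%) and 6 (beside 45%) with values under 16 units set at 16. The difference between the genotypes' LPS responses combines the contrasts that chose the genes, and it is therefore not tested here.

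**Figure D4:**
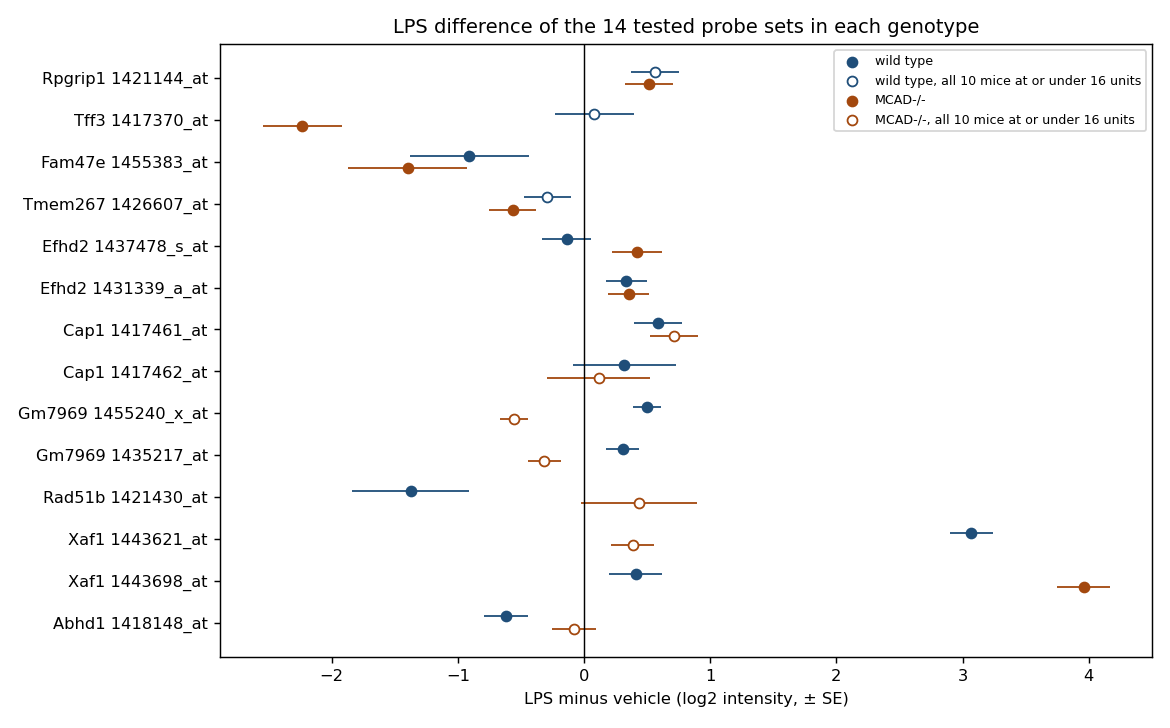
Difference after LPS (LPS minus vehicle, log2 intensity, ± SE from the fit) of the 14 tested probe sets in wild type and MCAD-/- mice; open symbols mark genotypes in which all 10 mice were at or under 16 units. The 2 largest rises are Xaf1 1443621_at in wild type (3.07) and Xaf1 1443698_at in MCAD-/- mice (3.96), and the largest fall is Tff3 in MCAD-/- mice (-2.23).

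The 10 genes lie on 7 chromosomes, and genes beside them also differed between genotypes. Of 97 different neighbours, the 5 nearest tested genes on each side where the annotation listed them, 25 passed with vehicle (25.8%, 13 higher and 12 lower in MCAD-/- mice) beside 14.8% of all tested genes. With LPS 30 passed (30.9%, 11 higher and 19 lower) beside 19.3%. In the same direction with both injections 16 passed (16.5%, 8 higher and 8 lower) beside 5.96%. The order of genes was taken from RefSeq's GRCm38.p6 annotation, which was used for the order alone.

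Among the neighbours that passed in one direction with both injections, the largest differences lay beside Gm7969 and Tmem267. Zfp874a, a zinc finger gene on the same side of Gm7969 as Rsl1, averaged 163 units in wild type and 3.83 units in MCAD-/- mice with vehicle (-5.41 ± 0.15, limma adjusted p = 2.15e-15) and 283 and 4.69 units with LPS (-5.92 ± 0.15, adjusted p = 2.9e-16). Rsl1, another zinc finger gene, was lower too (-1.03 ± 0.21, adjusted p = 0.0026, and -1.07 ± 0.21, adjusted p = 0.00154), while Mtrr, methionine synthase reductase, was higher (0.96 ± 0.16, adjusted p = 0.000226, and 0.66 ± 0.16, adjusted p = 0.00575). Next to Tmem267, 4833420G17Rik rose from 67.1 units in wild type to 424 units in MCAD-/- mice with vehicle (2.66 ± 0.15, adjusted p = 1.42e-10) and from 34.4 to 222 units with LPS (2.69 ± 0.15, adjusted p = 1.26e-10). Zfp131, also beside Tmem267, was higher with both injections. The mitochondrial transhydrogenase Nnt, a neighbour of Tmem267 whose deletion marks some BL6 stocks, passed with neither injection. It averaged 882 units in wild type and 1066 units in MCAD-/- mice with vehicle, without overlap (0.27 ± 0.14, adjusted p = 0.22). With LPS the averages were 441 and 518 units (0.23 ± 0.14, adjusted p = 0.27). Whether its probe set matches the deleted stretch was not tested.

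Beside Fam47e, the lysosomal receptor Scarb2 was higher (0.63 ± 0.11, limma adjusted p = 0.000728, and 1.01 ± 0.11, adjusted p = 2.82e-06), as was the glycogen-binding gene Stbd1 (0.96 ± 0.22, adjusted p = 0.00545, and 1.71 ± 0.22, adjusted p = 1.48e-05), and Sowahb was lower. Glo1, the glyoxalase near Tff3, fell from 5231 to 2218 units with vehicle (-1.24 ± 0.10, adjusted p = 2.08e-08) and from 3491 to 1511 units with LPS (-1.21 ± 0.10, adjusted p = 3.1e-08), opposite to Tff3. Near Rpgrip1, Chd8 was higher (1.23 ± 0.21 and 1.22 ± 0.21) and Supt16 lower (-0.78 ± 0.10 and -0.89 ± 0.10). Slc39a2, a zinc transporter gene also near Rpgrip1, passed with vehicle alone, at 34.9 units in wild type and 5.28 units in MCAD-/- mice (-2.72 ± 0.25, adjusted p = 2e-07), and was under 16 units on average in both genotypes with LPS (-0.72 ± 0.25, adjusted p = 0.055). The remaining neighbours that passed in one direction with both injections were Tmem51 (lower) and Pramel12 (higher) near Efhd2, Mfsd2a (lower) near Cap1, Spns2 (lower) near Xaf1 and Atraid (higher) near Abhd1. Rad51b had none. Near Rpgrip1, Fam47e, Efhd2 and Gm7969, both higher and lower genes were among these neighbours.

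**Figure D5:**
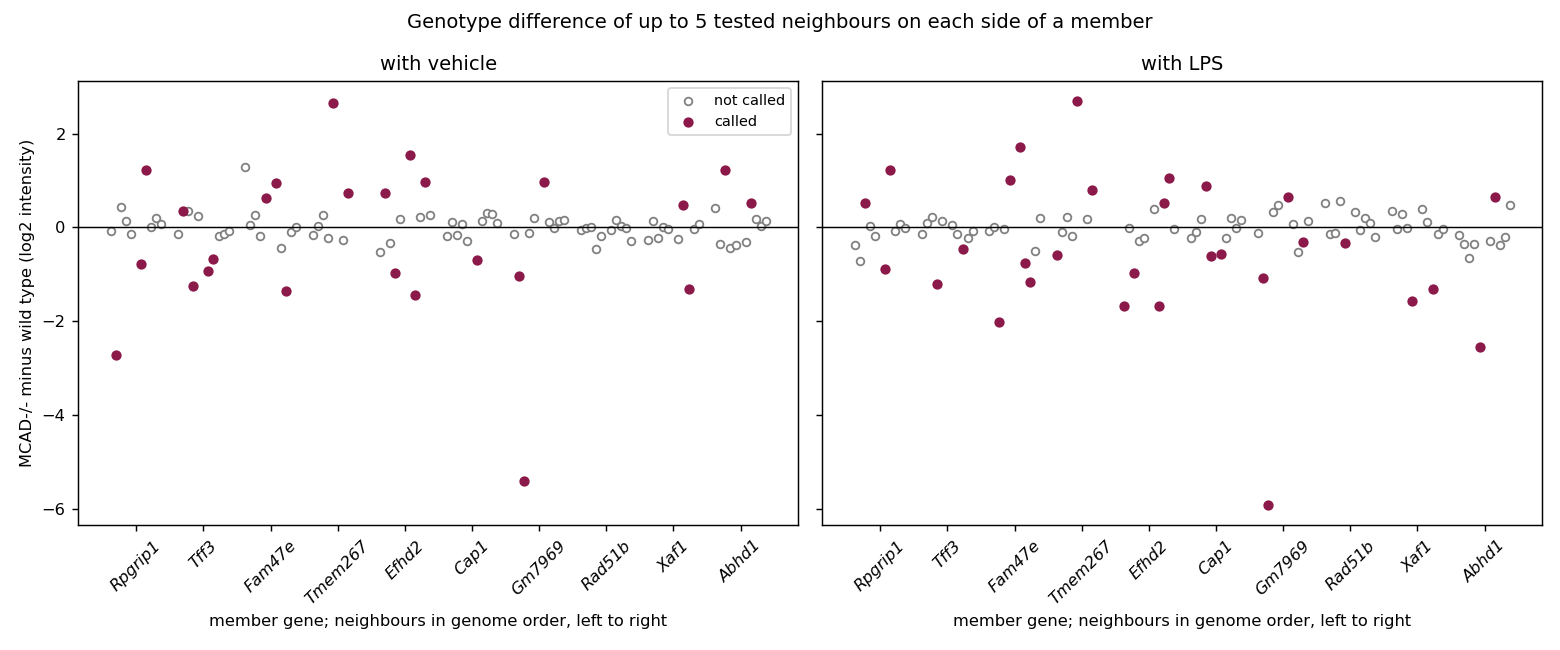
Genotype difference (MCAD-/- minus wild type, log2 intensity) of up to 5 tested genes on each side of each of the 10 genes, in chromosome order, with vehicle (left) and with LPS (right); filled symbols passed the limma test at an adjusted p under 0.05. The lowest point in each panel is Zfp874a beside Gm7969 (-5.41 and -5.92), and the highest is 4833420G17Rik beside Tmem267 (2.66 and 2.69).

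Several genes recurred among those most like each member over the 20 mice. By Pearson r of log2 intensity, Zfp874a, itself a neighbour of Gm7969, was the closest to Gm7969 (0.991), Cap1 (0.985) and Tmem267 (-0.987). Wdr82, a subunit of histone methyltransferase complexes, was the closest to Rpgrip1 (0.986) and Abhd1 (-0.981) and the next closest to Gm7969 (-0.990), and Elobl was the closest to Efhd2 (-0.987). Sdc4, a cell surface proteoglycan, came next for Efhd2 (0.983), Tmem267 (0.973) and Cap1 (-0.981). Xaf1 1443621_at was closest to Serinc3 (0.980) and BC029722 (0.977), Rad51b to Pebp1 (0.966) and Lnx1 (0.952), Tff3 to Cox6b2 (0.967) and 2610507I01Rik (0.964), and Fam47e to Plekhb1 (0.934) and Aff1 (0.934). Amacr followed Wdr82 for Rpgrip1 (0.979), and Elobl followed it for Abhd1 (0.980). The mice fall into their 2 genotypes on all of these genes, so each r mainly restates that shared split and carries no p.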

How the data were processed

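Liver RNA of 20 mice was read on 1 Affymetrix array each. The deposited table holds intensity on a linear scale, made by the authors with GCRMA per the submitters' processing notes; its version is not given in the sources used here. GCRMA corrects background and normalizes between arrays, so each difference is relative to the array's other probe sets, and dim ones gather near a floor. Intensities were taken to log2 with no pseudocount. After 64 control probe sets were left out, 45037 remained, of which 34945 had 1 gene symbol in the platform annotation, 932 several and 9160 none listed. Probe sets over 16 units on at least 5 arrays (15748) were fitted with limma 3.58.1 in R 4.3.3, 1 model with 4 group means and moderated spread. The Benjamini-Hochberg adjustment ran over these 15748, two-sided, with a threshold of 0.05; "passed", "rose" and "fell" refer to it, and ± is the SE of the fit. Neighbours and gene lists were read as 1 probe set per gene, the brightest over the arrays (8776 tested genes), from the same fit.

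Folds set a group whose 5 mice all lay under 16 units at 16 units ("at least"), and none is given where both groups did. Named are the 10 genes, neighbours called in the same direction with both injections, up to 3 genes of a list by smallest adjusted p, the 2 genes most like each member, and Acadm; Gnat1, Nnt, Slc39a2 and the marker genes were named after their values were seen. The 10 genes and all lists were chosen with earlier results of these data known. In no comparison did every pair of same-numbered mice deviate together with r over 0.1 (7 of 20 pairs did, 3 of them among the 5 pairs of LPS mice across genotypes, which ran from 0.04 to 0.33), so numbers were not used as pairs. Alternatives tried were a replicate block, a filter of 64 units or none, median centring, quantile normalization, a trended robust prior, the compared groups alone, 1 row per gene, other numbers of neighbours, the mean of all probe sets of a gene, values under 8, 16 or 32 units set to that level, each mouse left out, and, chosen after seeing the data, both arrays of highest actin ratio left out and overlap read with values under 16 units set at 16. The limma script was tested on simulated data. The list of genes related to Rad51b is not reported here.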

Additional observations from a re-analysis of the deposited data

Results flagged for a closer look

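In 37 groups of 5 mice examined for a single mouse far from the rest, 3 held one, and chance flags about 1 in 20 such groups. Fam47e 1455383_at read 455 units in MCAD-/- vehicle replicate 2, with the next mouse at 288 units. Cap1 1417462_at read 41.2 units in wild type vehicle replicate 3, with the next at 98.4 units, and that array had the second highest actin ratio. Rad51b 1421430_at read 7.23 units in wild type LPS replicate 5, with the next at 46.8 units.

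For Gm7969 1455240_x_at the deposited values after LPS lay above all vehicle values in wild type mice (0.50 on the log2 scale) and below them in MCAD-/- mice (-0.56). All MCAD-/- values were under 16 units, where the order is not reliable, so no direction is read there, and the difference between the genotypes was not tested.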

How the results depend on the processing

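Of 28 LPS differences of the tested probe sets, 15 passed and 9 of these passed under every alternative run; none changed direction with a call. None of the 20 genotype differences (brightest probe set of each gene) changed sign, but many changed in size on the log2 scale. With the mean of all probe sets, 8 of the 12 differences of genes with several probe sets moved by over 1.5 times, among them Xaf1 with LPS (-0.97 in place of -6.61) and Rpgrip1 with vehicle (1.31 in place of 5.12). With low values set to 16 or 32 units, 8 and 16 of the 20 moved by over 1.5 times, the most for Tff3 with LPS (0.60 and 0.19 in place of 2.10), and with 8 units none did. Median centring, quantile normalization and leaving out any 1 mouse moved none of the 20 by that much. The count of probe sets that passed for LPS in wild type was 4 in place of 7 in a fit of the compared groups alone. With a filter of 64 units, 16 neighbours passed with vehicle in place of 25, and how many were still tested was not counted. With 5 genes on each side, 25 of 97 passed with vehicle (25.8%) and 30 of 97 with LPS (30.9%). These were 40 of 192 (20.8%) and 56 of 192 (29.2%) with 10 on each side. With 3 on each side they were 20 of 59 (33.9%) and 25 of 59 (42.4%), beside 14.8% and 19.3% of all tested genes. With the replicate number as a block, 6 probe sets passed for LPS in wild type and 8 in MCAD-/- mice, and 2056 and 2858 of all probe sets between genotypes with vehicle and LPS, in place of 2114 and 2852; the labels give no reason for pairing, and r between same-numbered mice ran from -0.22 to 0.35. All 5 pairs of LPS mice across genotypes were above 0, and 4 of those 10 mice were closest to their own number. Leaving out 1 mouse at a time gave 6 to 8 probe sets for LPS in wild type and 6 to 9 in MCAD-/- mice, 20 to 26 neighbours with vehicle and 27 to 33 with LPS. The causes were not tested. Values near 16 units or below limit every fold given as a bound, and 5 mice in a group limit the precision of all differences.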
